A study of Mus musculus with 18 samples.

Results

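A set of 10 genes of fibroblast growth factor (FGF) signalling was followed in mRNA-seq of P19 cells, a mouse embryonal carcinoma line that resembles the pluripotent cells of the early embryo. They were 4 ligands (Fgf8, Fgf17, Fgf4 and Fgf15), the receptor Fgfr1, the ETS transcription factors Etv4 and Etv5, and the feedback inhibitors Spry2, Spry4 and Dusp6, that is 10 of the 55450 genes listed. The genes were taken by symbol and were chosen by their measured TPM, in particular by the spread of Fgf8 and of genes downstream of it among the HetKO samples. Their values in HetKO cells are therefore given as a description without a test. Their WT and HM values were also known when they were chosen. Adjusted p-values of these genes between HM and WT do not correct for that choice and are descriptive too.

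The study compared 3 lines with 6 samples each, none with a treatment in its labels. WT cells were unedited P19 cells with both Dicer1 alleles intact, written Dicer (+/+). HetKO cells, Dicer (+/-), carried a truncating CRISPR edit on 1 allele. HM cells, Dicer (HM/-), kept that truncated allele and carried in the other allele the E1797G hotspot change in the RNase IIIb domain, so the HetKO line was the control that shares the truncated allele. Each edited genotype was represented by 1 line, so an effect of the mutation and an effect of isolating that line cannot be told apart. HetKO samples were titled in another form and registered in a separate run of sample numbers from WT and HM. The labels do not say whether the 3 lines were sequenced together. A difference in processing thus cannot be told apart from genotype in comparisons that hold HetKO samples. Nothing in the labels says that the 6 samples of a line came from separate cultures, so each p-value measures the spread between these samples, which may be technical.

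FGF ligands bind receptor tyrosine kinases together with heparan sulfate, and the receptors pass the signal through adaptors to RAS, RAF, MEK and ERK. ERK activity induces ETS factors of the PEA3 group, among them Etv4 and Etv5, and it also induces its own inhibitors, the Sprouty proteins and the ERK phosphatase Dusp6, whose transcripts are commonly used as readouts of the pathway. In the early mouse embryo Fgf4 comes from pluripotent cells and drives them out of the naive state, whereas Fgf8 is a ligand of the primitive streak.

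Values were TPM, a length-corrected share of all transcripts that sums to a fixed total in each sample, so sequencing depth is unknown and no counting interval could be given. Dicer1 itself lay between 49.2 and 54.8 TPM in WT, 42.9 and 53.8 in HetKO and 35.4 and 44.2 in HM, a level that does not show the point mutation. The 7 pluripotency markers of the labelled cell type summed to 2422 to 3126 TPM across the 18 samples, but most of that sum was Pou5f1, at 1814 to 2244 TPM. Zfp42 averaged only 0.307 TPM in HetKO. Nanog averaged 46.9 TPM in WT, 86.3 in HetKO and 18.8 in HM (limma adjusted p = 0.000903 between HM and WT). It was 50 and 50.9 TPM in HetKO replicates 1 and 4 against 89.3 to 112 TPM in the other 4. Dppa4 of the same list did not follow Nanog. It was 1.49 and 1.44 TPM in HetKO replicates 2 and 5 against 11.8 to 25.3 TPM in the other 4. In WT, Dppa4 was 88.9 and 89.5 TPM in replicates 1 and 4 against 16.6 to 22.9 TPM in the rest. Sox2 and Utf1 were higher in HM than in WT by log2 fold changes of 0.66 ± 0.07 and 0.81 ± 0.15 (SE; limma adjusted p = 1.95e-05 and 0.000704). The part of these differences in the FGF values was not tested. Over 683 highly expressed genes the 6 samples of each line were split into the 3 alike pairs with the smallest summed spread. Such a search always returns 3 pairs and favours low spreads within them. The pairs were replicates 1 and 4, 2 and 5, and 3 and 6 in WT and HetKO, and 1 and 4, 2 and 3, and 5 and 6 in HM. Within-pair spreads of the log2 ratio were 0.051 to 0.0696 in HetKO, against 0.164 to 0.358 between its pairs, so the 6 samples of a line may not be independent. The pairs were less distinct in WT, where the spread was 0.0493 to 0.0746 within pairs and 0.073 to 0.205 between them.

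**Figure D1:**
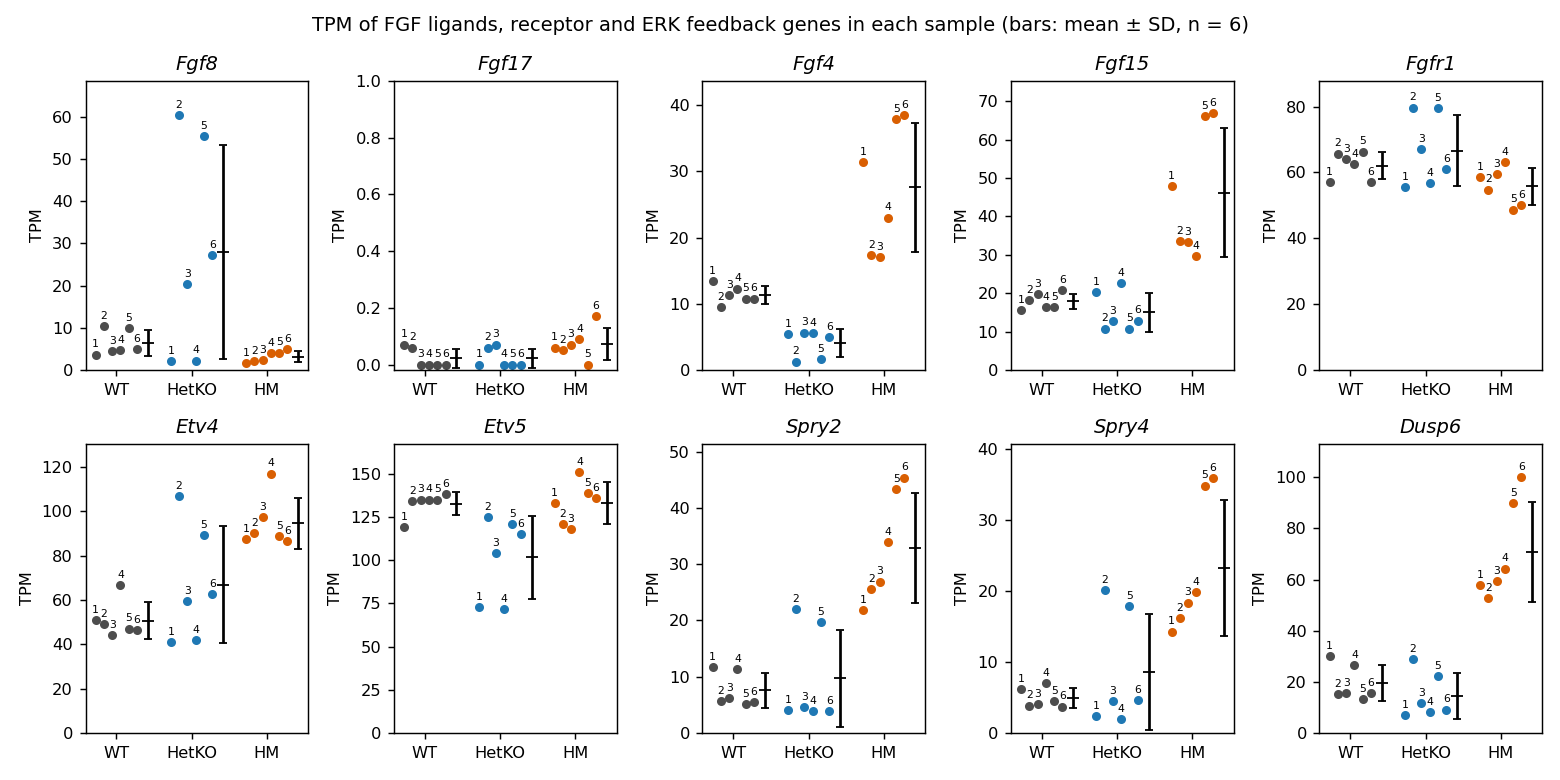
TPM of the 10 genes (vertical axes, linear) in each sample of WT, HetKO and HM; each point is 1 sample with its replicate number, and bars give the mean ± SD of 6 samples. Fgf8 spans 2.11 to 60.4 TPM among the HetKO samples, and Spry2, Spry4 and Dusp6 are highest in HM.

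Fgf8, on chromosome 19 (GRCm38, 45736798 to 45742915, minus strand), had the widest range of these genes among the HetKO samples on the log2(TPM + 1) scale. WT samples held 3.7, 4.87 and 10.5 TPM of Fgf8 as the lowest, median and highest value, and HM samples 1.66, 3.18 and 4.91 TPM. HetKO replicates 1 to 6 held 2.11, 60.4, 20.4, 2.28, 55.3 and 27.3 TPM. Replicates 1 and 4 of HetKO thus lay below every WT sample and the other 4 above every WT sample, while the HM and WT ranges overlapped. By their means the lines ranked HM (3.20 ± 1.33 TPM, SD, n = 6), WT (6.41 ± 2.99) and HetKO (28.0 ± 25.2), with overlap between every pair of neighbours in that order. HM was lower than WT by a log2 fold change of -0.79 ± 0.27 (SE; fold changes are of TPM + 1), with an adjusted p of 0.0247 in limma. That call was lost in 5 of 8 alternative analyses, and the limma adjusted p was 0.0688 with samples centred on their median, 0.111 after quantile normalization and 0.121 with each alike pair taken as 1 replicate.

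Fgf17, a close relative of Fgf8 on chromosome 14 (70636203 to 70642268, minus strand), was close to 0 throughout. Its highest value in any sample was 0.17 TPM, so it did not reach the mean of 1 TPM required for testing, and 9 of the 10 genes were tested.

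Fgf4 and Fgf15 were both higher in HM than in WT, whereas between HetKO and WT Fgf4 was lower in every sample and Fgf15 overlapped. Fgf4 is the FGF of pluripotent cells, and Fgf15 is the mouse counterpart of the human hormone FGF19. The genes are neighbours on the plus strand of chromosome 7 (Fgf4, 144847367 to 144865243, and Fgf15, 144896531 to 144900953), separated by 31287 bases. The lowest, median and highest Fgf4 values were 9.55, 11 and 13.4 TPM in WT and 17.1, 27.2 and 38.5 TPM in HM. HetKO replicates 1 to 6 had 5.41, 1.28, 5.66, 5.64, 1.69 and 5.01 TPM of Fgf4. The 3 lines did not overlap, with Fgf4 lowest in every HetKO sample and highest in every HM sample. The Fgf4 difference was 1.14 ± 0.20 (SE) on the log2 scale between HM and WT, with an adjusted p of 0.00046 in limma, and -1.40 ± 0.27 between HetKO and WT.

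For Fgf15 the lowest, median and highest values were 15.6, 17.4 and 20.8 TPM in WT and 29.6, 40.7 and 66.8 TPM in HM. HetKO replicates 1 to 6 had 20.3, 10.8, 12.8, 22.6, 10.8 and 12.9 TPM of Fgf15. HM lay above both other lines in every sample, whereas HetKO and WT overlapped. The log2 fold change of Fgf15 was 1.25 ± 0.20 (SE) between HM and WT, with an adjusted p of 0.000225 in limma, and -0.29 ± 0.17 between HetKO and WT.

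Some of the genes around this pair on chromosome 7 were higher in HM as well. Of 9 other genes tested in a window reaching 500 kb to either side, 5 were higher in HM than in WT in limma (19.4% of all genes were higher), 0 were lower (32.0% of all genes) and 4 did not pass. Ccnd1, which encodes the G1 cyclin D1 and overlaps LTO1 on the opposite strand, rose from 11.1 ± 1.25 TPM in WT to 153 ± 58.4 TPM in HM (SD, n = 6), a log2 fold change of 3.59 ± 0.21 with an adjusted p of 1.54e-07 in limma. Fgf3, the ligand gene on the other side, had 1.11 ± 0.435 TPM in WT and 2.15 ± 0.72 TPM in HM, with an adjusted p of 0.017 in limma that was 0.0968 with each alike pair as 1 replicate. The window was chosen after the values of Fgf4 and Fgf15 were seen.

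Summed over 18 secreted FGF genes, ligand transcripts came to 47.3 ± 1.26 TPM in WT, 52.8 ± 17 in HetKO and 115 ± 45.0 in HM (SD, n = 6). Fgf8 made up 7.86% to 21.4% of that sum in WT and 1.57% to 4.72% in HM. In HetKO its share was 5.83% in replicate 1, 6.29% in replicate 4, 44.2% in replicate 3, 52.4% in replicate 6, 78.7% in replicate 5 and 79.3% in replicate 2. Fgf15, Fgf4 and Fgf5 together supplied most of the sum in every WT and HM sample, and the Fgf5 share was 18% to 33.8% in HM against 8.73% to 19.1% in WT.

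**Figure D2:**
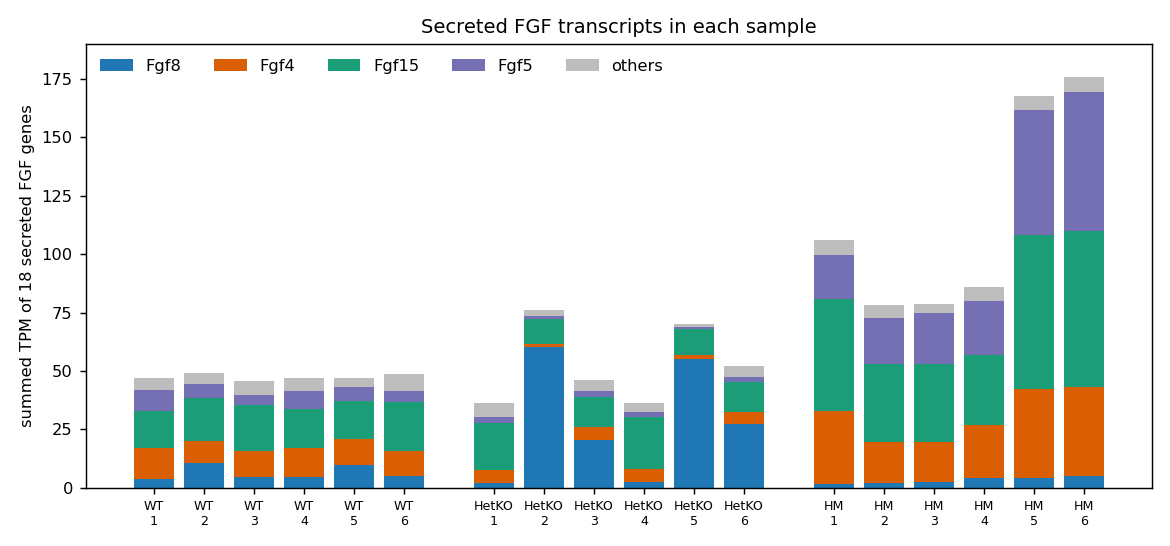
Summed TPM of 18 secreted FGF genes in each sample (vertical axis), stacked by gene, with lines and replicate numbers along the horizontal axis. Fgf8 supplies 78.7% and 79.3% of the sum in HetKO replicates 5 and 2, and the HM sums of 78.2 to 176 TPM exceed the WT sums of 45.5 to 49.0 TPM.

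Fgfr1, the receptor with the most transcripts among the FGF receptors in these cells, lies on chromosome 8 (25513654 to 25575718, plus strand). It differed little between lines. Its lowest, median and highest values were 57.0, 63.2 and 66.3 TPM in WT and 48.7, 56.7 and 63.2 TPM in HM, so the ranges overlapped. HetKO replicates 1 to 6 held 55.5, 79.7, 67.2, 56.7, 79.5 and 61.1 TPM of Fgfr1, with replicates 2, 3 and 5 above every WT and HM sample. HM differed from WT by a log2 fold change of -0.15 ± 0.07 (SE), which did not pass in limma (adjusted p = 0.0912) and became 0.02 when samples were centred on their median.

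Etv4 and Etv5, which share a DNA-binding ETS domain and are induced by FGF signalling, differed in their response. Etv4 (chromosome 11, 101769742 to 101785371, minus strand) had 44.0, 48.2 and 66.7 TPM in WT and 86.6, 89.5 and 117 TPM in HM as the lowest, median and highest values. Every HM sample lay above every WT sample, and the log2 fold change was 0.89 ± 0.10 (SE) with an adjusted p of 2.71e-05 in limma. HetKO replicates 1 to 6 held 40.8, 107, 59.4, 41.8, 89.2 and 62.6 TPM of Etv4. HetKO replicates 2 and 5 thus reached the HM range and replicates 1 and 4 lay below every WT sample.

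Etv5 (chromosome 16, 22381309 to 22439719, minus strand) had 119, 135 and 138 TPM in WT and 118, 134 and 151 TPM in HM, again as the lowest, median and highest values. The mean was 133 TPM in both lines, the log2 fold change was 0.0 ± 0.06 (SE), and the limma adjusted p was 0.99. HetKO replicates 1 to 6 held 72.7, 125, 104, 71.6, 121 and 115 TPM of Etv5. In 4 of the 6 samples the value lay below the lowest WT sample, and the HetKO log2 fold change against WT was -0.42 ± 0.14.

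The 3 feedback inhibitors showed the largest differences between HM and WT among the 9 genes tested. Spry2 and Spry4 encode Sprouty proteins, which restrain RAS and RAF activation by receptor tyrosine kinases, and Dusp6 encodes a phosphatase that removes the activating phosphates from ERK. Spry2 lies on chromosome 14 (105891947 to 105896819, minus strand), and its lowest, median and highest values were 5.07, 5.92 and 11.7 TPM in WT and 21.9, 30.5 and 45.4 TPM in HM. Spry4 had 3.7, 4.28 and 7.04 TPM in WT and 14.3, 19.2 and 36.0 TPM in HM. Dusp6, on chromosome 10 (99263231 to 99267489, plus strand), had 13.1, 15.7 and 30.1 TPM in WT and 52.6, 61.9 and 100 TPM in HM. For none of the 3 did the HM and WT ranges overlap. The log2 fold change was 2.00 ± 0.24 (SE) for Spry2, with an adjusted p of 3.34e-05 in limma. It was 1.99 ± 0.23 for Spry4 (limma adjusted p = 3.31e-05) and 1.84 ± 0.22 for Dusp6 (limma adjusted p = 3.55e-05).

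Within WT and within HM the feedback genes also differed between the alike pairs. In WT, replicates 1 and 4 held 11.7 and 11.4 TPM of Spry2 and 30.1 and 26.6 TPM of Dusp6, against 5.07 to 6.22 TPM and 13.1 to 15.7 TPM in the other samples. Fgf8 in these 2 samples was 3.7 and 4.7 TPM, among the 3 lowest values of WT. In HM, replicates 5 and 6 were highest for Spry2 (43.4 and 45.4 TPM), Spry4 (34.9 and 36.0 TPM) and Dusp6 (90.0 and 100 TPM). The same 2 HM samples had the most Fgf4 and Fgf15, at 37.9 and 38.5 TPM and at 66.0 and 66.8 TPM, and also the most Fgf8, at 4.15 and 4.91 TPM. The 6 HM samples ranked in the same order for Fgf8, Spry2 and Spry4, over an Fgf8 range of 1.66 to 4.91 TPM. That order was also the order of their replicate numbers. Dusp6 departed from it, with 57.7 TPM in HM replicate 1 and 52.6 TPM in HM replicate 2. Because the samples fall into alike pairs, these ranks are not independent.

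Between HM and WT, 7 of the 9 genes tested passed in limma, where 51.4% of all 14043 genes did. Of the 9, 6 were higher in HM, where 19.4% of all genes were higher, and 1 was lower, where 32.0% of all genes were lower. Ranges of HM and WT did not overlap for 6 of the 9 genes, against 28.5% of all genes. The median log2 fold change of the 9 genes was 1.14 and that of all genes was -0.09, a value that became 0.08 when samples were centred on their median. Fgf4, Fgf15, Etv4, Spry2, Spry4 and Dusp6 were higher in HM with a limma adjusted p below the threshold of 0.05 in all 9 alternative analyses, among them those with other scalings and with each alike pair as 1 replicate. Because the genes were chosen with their values known, no test was made of the list. The counts of genes that passed are a description for the same reason.

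**Figure D3:**
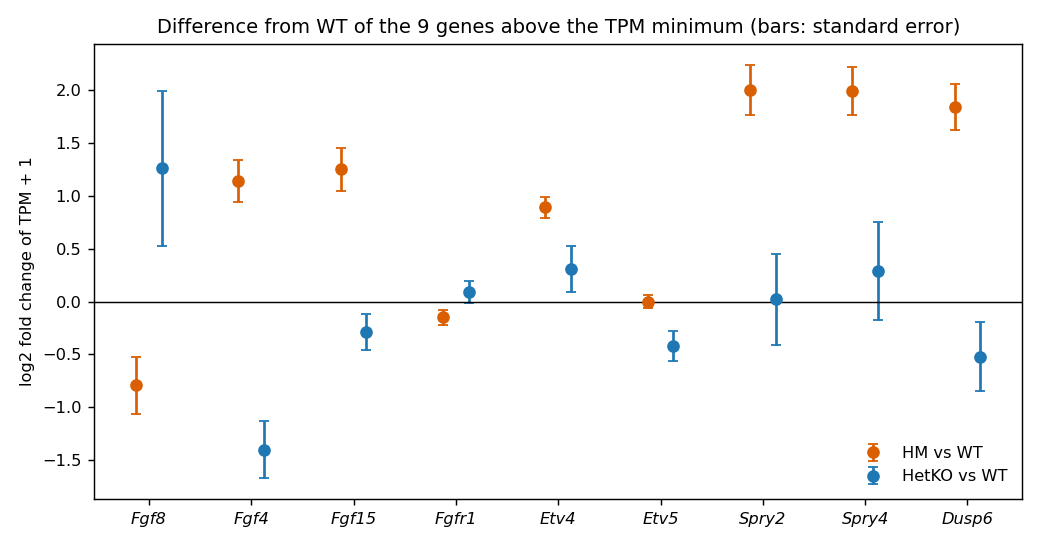
Log2 fold change of TPM + 1 (vertical axis) of HM and of HetKO against the same 6 WT samples for the 9 genes above the TPM minimum, with standard errors as bars. Spry2, Spry4 and Dusp6 sit at 1.84 to 2.00 in HM, and Fgf4 sits at 1.14 in HM and -1.40 in HetKO.

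Among the HetKO samples, some downstream genes rose in the same steps as Fgf8 and others did not. Fgf8 was at 2.11 and 2.28 TPM in replicates 1 and 4, at 20.4 and 27.3 TPM in replicates 3 and 6, and at 60.4 and 55.3 TPM in replicates 2 and 5. Of the 8 other genes above the TPM minimum, 5 (Fgfr1, Etv4, Etv5, Spry4 and Dusp6) ranked these 3 pairs in the same order, 1 (Fgf15) ranked them in the reverse order, and 2 (Spry2 and Fgf4) did neither. The pairs were those alike over all highly expressed genes, so the 6 samples are not independent and no correlation was computed. The genes were chosen with this pattern in view, so the counts are a description only. The share of all genes with the same order was not computed.

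The steps were of unequal size. Spry2 was 4.02, 22.0, 4.53, 3.93, 19.7 and 3.9 TPM in HetKO replicates 1 to 6, so replicates 3 and 6, with far more Fgf8 than replicates 1 and 4, had a like level of Spry2. Spry4 was 2.32, 20.2, 4.46, 2.0, 17.9 and 4.6 TPM, and Dusp6 was 6.91, 28.9, 11.6, 8.14, 22.3 and 9.09 TPM. All 3 inhibitors were thus much higher in replicates 2 and 5 than in the other 4, where Spry4 in replicates 3 and 6 was close to the WT mean of 4.88 TPM and Dusp6 was below every WT sample. Etv4 and Etv5 rose over both steps, from 40.8 and 41.8 TPM over 59.4 and 62.6 TPM to 107 and 89.2 TPM for Etv4. Fgf4 changed little over the first step, from 5.41 and 5.64 TPM in replicates 1 and 4 to 5.66 and 5.01 TPM in replicates 3 and 6. Its lowest levels, 1.28 and 1.69 TPM, were in the samples with the most Fgf8.

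**Figure D4:**
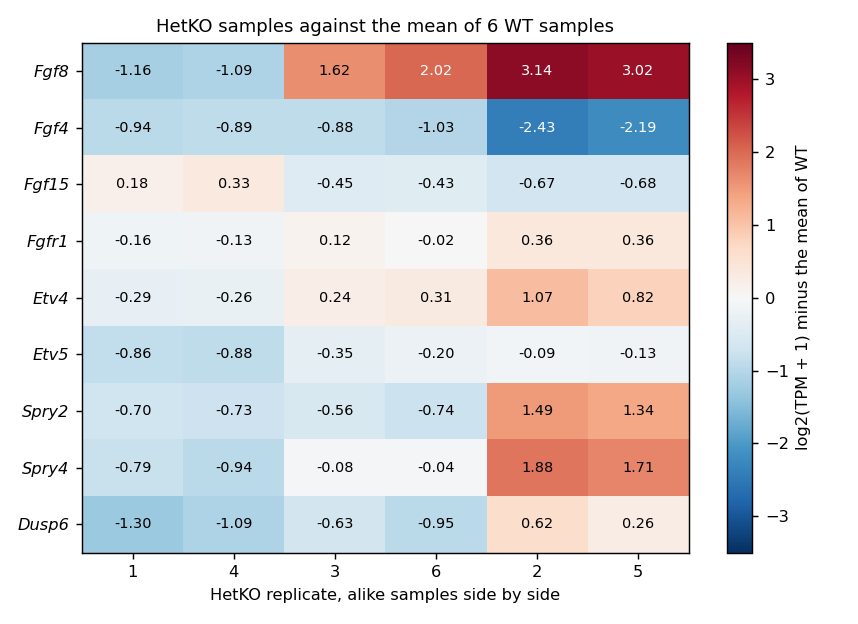
Difference of log2(TPM + 1) in each HetKO sample from the mean of 6 WT samples (colour and number), by gene and by replicate with alike samples side by side. In replicates 2 and 5 Fgf8 is 3.14 and 3.02 above WT and Spry4 1.88 and 1.71 above, and in replicates 3 and 6 Fgf8 is 1.62 and 2.02 above while Spry2 is -0.56 and -0.74.

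As means over the line, HetKO against WT gave log2 fold changes of 1.26 ± 0.73 (SE) for Fgf8, 0.31 ± 0.22 for Etv4, 0.02 ± 0.43 for Spry2, 0.29 ± 0.46 for Spry4 and -0.52 ± 0.33 for Dusp6. Without replicates 2 and 5 the sign turned for Spry2 and Spry4, to -0.68 and -0.46, and for Fgfr1, from 0.09 to -0.05. Without them the Fgf8 difference fell to 0.35, that of Etv4 to 0.0, and that of Dusp6 was -0.99. HM against HetKO, which share the truncated allele, gave -2.05 ± 0.72 for Fgf8, 2.54 ± 0.32 for Fgf4, 1.54 ± 0.24 for Fgf15 and 2.35 ± 0.31 for Dusp6. Without HetKO replicates 2 and 5 the Fgf8 difference was -1.14. Fgf4, Fgf15 and Dusp6 did not overlap between these lines. The share of all genes without overlap was not computed for HM and HetKO, so this is a description only.

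Samples of HM and HetKO with like amounts of Fgf8 held different amounts of the feedback genes. HM replicates 1 to 3 and HetKO replicates 1 and 4 held 1.66 to 2.32 TPM of Fgf8. Spry2 was 21.9 to 26.9 TPM in those HM samples and 4.02 and 3.93 TPM in those HetKO samples. Dusp6 was 52.6 to 59.5 TPM in the former and 6.91 and 8.14 TPM in the latter. Summed secreted FGF transcripts also differed between these samples. They were 106, 78.2 and 78.8 TPM in HM replicates 1 to 3 and 36.2 TPM in HetKO replicates 1 and 4. The part of any ligand in the feedback values was not tested. Over all 18 samples Pearson's r of log2(TPM + 1) with Fgf8 was 0.78 for Fgfr1, 0.17 for Etv4, 0.14 for Etv5, 0.07 for Spry4, -0.12 for Spry2, -0.27 for Dusp6, -0.67 for Fgf15 and -0.73 for Fgf4, values that share lines and alike pairs and are given without a test.

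The primitive streak markers T and Eomes moved with Fgf8 in HetKO. T (Brachyury) was 0.94, 110.0, 8.17, 0.97, 66.2 and 9.13 TPM in HetKO replicates 1 to 6, and Eomes was 7.02, 80.8, 15, 7.44, 67.9 and 15.5 TPM. The 5 streak and mesoderm markers summed to 11 to 195 TPM in HetKO, 14.5 to 23.1 TPM in WT and 30.6 to 65.5 TPM in HM. Tbx6 of that list showed no such step in HetKO, with 2.26, 2.73, 1.92, 2.41, 1.94 and 2.15 TPM. In HM it was lower than in WT, by a log2 fold change of -1.01 ± 0.15 (SE; limma adjusted p = 0.000164), whereas T and Eomes were higher by 1.80 ± 0.31 and 0.94 ± 0.14 (0.000418 and 0.000145 by the same test). Mixl1 and Mesp1 had means of at most 1.32 TPM in any line. Of 5 endoderm markers at least 4 had a mean under 1 TPM in each line, and Afp was at most 0.04 TPM in any sample. The neural markers summed to 23.7 to 55.6 TPM, mostly Tubb3, which was lowest in HetKO replicates 2 and 5 (24.3 and 22.9 TPM), while the neural factor Sox1 had a mean of at most 0.167 TPM in any line. The 5 fibroblast markers summed to 10.2 to 39.7 TPM across the 18 samples. Of these, Thy1 was lowest in HetKO replicates 2 and 5, at 6.25 and 6.45 TPM. In bulk RNA, more cells of a type and more transcript per cell cannot be told apart, and the part of such cells in the Fgf8 values was not tested.

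The 5 named genes whose levels over the 18 samples were most like Fgf8, among 10337 genes that averaged 5 TPM or more, were Cxcl12 (r = 0.92), Wnt8a (0.91), Plcb4 (0.90), Fndc3c1 (0.90) and Npm3 (0.90). Wnt8a, a WNT ligand of the primitive streak, held 62.8 and 46.0 TPM in HetKO replicates 2 and 5, 7.65 and 7.25 TPM in replicates 3 and 6, and 1.26 and 0.68 TPM in replicates 1 and 4. Cxcl12, a chemokine, held 122 and 121 TPM, 70.7 and 68.6 TPM, and 17.9 and 22.9 TPM in the same 3 pairs. Npm3, which encodes a nucleoplasmin family histone chaperone, lies 4818 bases upstream of Fgf8 on the same strand (chromosome 19, 45747734 to 45749591). It held 94.5 to 112 TPM in WT, 105 to 172 TPM in HetKO and 82.4 to 106 TPM in HM, with 172 and 167 TPM in HetKO replicates 2 and 5.

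The rest of the pathway was described by 6 lists with 96 other genes, of which 75 could be tested between HM and WT. Of these, 22 were higher in HM, 16 were lower and 37 did not pass, so that 50.7% passed where 51.4% of all genes did. A share this near the background is no result about the pathway. Centring the samples on their median changed the counts to 37 higher and 11 lower, as it changed the share of all calls that were higher in HM from 37.7% to 61.0%. The 18 genes named below from the lists kept their direction under median centring and quantile normalization.

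Among other ligands, 3 of 5 tested were higher in HM (19.4% of all genes) and 2 were lower (32.0% of all genes), and 13 were below the TPM minimum. Fgf5, a marker of the primed epiblast, had a lowest, median and highest value of 3.97, 5.99 and 8.97 TPM in WT, 1.0, 2.17 and 2.63 TPM in HetKO and 19.1, 22.6 and 59.6 TPM in HM. The 3 lines did not overlap, and the log2 fold change of Fgf5 between HM and WT was 2.10 ± 0.30 (SE) with a limma adjusted p of 0.000122. Fgf13, an intracellular FGF homologous factor that is not secreted, differed by 0.38 ± 0.10 (limma adjusted p = 0.00808, or 0.0998 with each alike pair as 1 replicate).

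Of 5 other receptors and co-receptors tested, 1 was higher and 1 lower in HM (19.4% and 32.0% of all genes). Fgfr2 fell from 10.7 ± 2.81 TPM in WT to 4.08 ± 2.19 TPM in HM (SD, n = 6), a log2 fold change of -1.28 ± 0.27 (SE) with a limma adjusted p of 0.00151. It was 4.12 ± 2.37 TPM in HetKO, also lower than in WT (-1.28 ± 0.27, limma adjusted p = 0.0108). Among 19 heparan sulfate genes 4 were higher and 4 lower, beside the same shares of all genes. The glypican Gpc4 rose by 1.18 ± 0.17 (limma adjusted p = 0.000129) and the sulfotransferase Hs6st2 by 0.40 ± 0.15 (0.0374 by the same test, a call lost in 5 of 9 alternative analyses), while Hs6st1 and the syndecan Sdc4 changed by -0.64 ± 0.08 and -0.58 ± 0.15. For Sdc4 the limma adjusted p was 0.00656, and 0.0788 with pair means.

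In the cascade from adaptors to ERK, 4 of 20 genes were higher and 6 lower in HM. These counts were near the shares of all genes (19.4% and 32.0%) and are no result about the cascade. Hras and Nras, which encode RAS proteins, differed by 0.62 ± 0.07 and 0.52 ± 0.14 (SE; limma adjusted p = 2.44e-05 and 0.00671, the latter 0.0815 with pair means). Sos2, an exchange factor for RAS, and the docking adaptor Frs3 differed by -0.85 ± 0.15 and -0.78 ± 0.22 (limma adjusted p = 0.000586 and 0.00954).

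Of 13 other feedback inhibitors and phosphatases tested, 6 were higher and 1 lower in HM (19.4% and 32.0% of all genes), and their median log2 fold change was 0.24 (-0.09 for all genes). With samples centred on their median, 8 were higher and 1 lower, and the median was 0.42 (0.08 for all genes). The background rose as well, since 4508 of all 14043 genes were higher in HM with centring and 2722 without it. Of all genes, 7387 passed with centring. Dusp4, a nuclear phosphatase of ERK, rose by 1.11 ± 0.25 (SE; limma adjusted p = 0.00242) and Spred3, a Sprouty-related inhibitor, by 0.92 ± 0.11 (limma adjusted p = 2.92e-05). Lztr1, an adaptor for the degradation of RAS proteins, differed by -0.58 ± 0.11 (limma adjusted p = 0.000781). In WT, Dusp4 was highest in replicates 1 and 4, at 14.8 and 17.8 TPM against 7.13 to 9.59 TPM, the same samples that were highest for Spry2, Spry4 and Dusp6. In HetKO replicates 2 and 5 it was 6.91 and 6.63 TPM against 3.97 to 6.68 TPM in the other 4, without the gap seen for Spry2 and Spry4.

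Of 13 other ERK-responsive factors and Capicua complex genes, 4 were higher and 2 lower in HM (19.4% and 32.0% of all genes). Egr1, an immediate early gene of ERK signalling, had 3.0, 3.68 and 5.05 TPM in WT and 12.4, 21.5 and 26.7 TPM in HM as the lowest, median and highest values. Those ranges did not overlap, and the log2 fold change was 2.15 ± 0.17 (SE) with a limma adjusted p of 2.96e-06. Etv1, the third member of the PEA3 group, rose by 1.09 ± 0.21 (limma adjusted p = 0.000989). In HetKO replicates 1 to 6 Egr1 was 3.75, 11.7, 1.34, 3.85, 10.2 and 1.46 TPM and Etv1 was 4.91, 16, 5.19, 5.27, 13.5 and 3.68 TPM. Both were thus high in replicates 2 and 5, and Egr1 was lower in replicates 3 and 6 than in replicates 1 and 4. Elk1, an ETS factor phosphorylated by ERK, and Cic, the repressor of Etv4 and Etv5 that ERK inactivates, differed by -0.36 ± 0.12 and -0.30 ± 0.12, calls that were lost under median centring (limma adjusted p = 0.153 and 0.337) and with pair means (0.159 and 0.171).

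**Figure D5:**
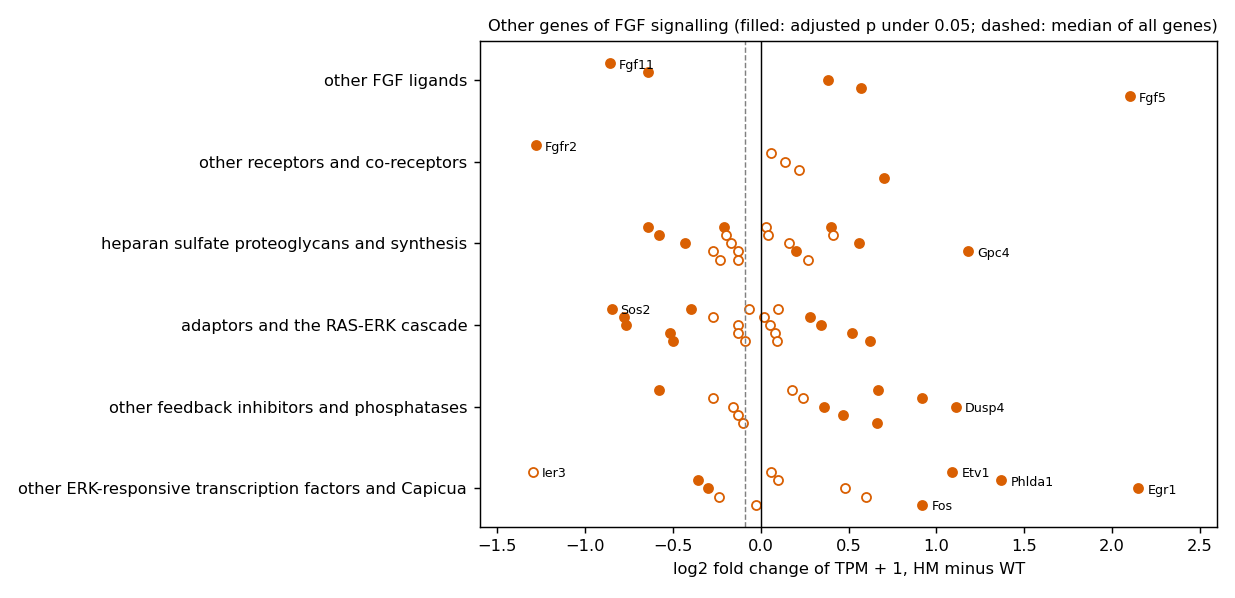
Log2 fold change of TPM + 1 between HM and WT (horizontal axis) for the 75 tested genes of 6 lists (vertical axis); filled points passed the limma test, and the dashed line is the median of all genes at -0.09. Fgf5 (2.10) and Egr1 (2.15) lie farthest to the right, and Fgfr2 (-1.28) is the lowest of the genes that passed.

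Between HetKO and WT, 7 of 72 genes of the lists passed in limma, or 9.72%, where 10.2% of all 13999 genes did. One was higher (Nras, 0.76 ± 0.13), where 3.71% of all genes were higher, and 6 were lower (Fgf5, Fgfr2, Sdc3, Spry1, Dusp4 and Il17rd), where 6.44% of all genes were lower. With each alike pair as 1 replicate none of the 72 passed and 6 had an unadjusted p under 0.05 in limma. Between HM and HetKO, 24 of 75 genes passed, where 34.6% of all 13762 genes did. Of these 16 were higher in HM and 8 were lower, against 14.0% and 20.6% of all genes. The count fell to 5 with each alike pair as 1 replicate.

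Dicer with a mutated RNase IIIb domain is known to leave the 5p arm of a precursor uncut. Seeds of some miRNAs from precursors that the study examined were therefore searched in the 3′ UTRs of the 10 genes. Others in the study, such as miR-30a-3p and miR-26a-2-3p, were not searched. The 5p miRNAs are shown first and the passenger 3p miRNAs after them, with the seed (bases 2 to 8) in capitals, from RefSeq for GRCm38.p6. They fall into 4 seed groups on the 5p side and 3 on the 3p side, since miR-15b-5p shares its seed with miR-16-5p, miR-17-5p with miR-20b-5p, and miR-17-3p with miR-20b-3p.
mmu-miR-7a-5p: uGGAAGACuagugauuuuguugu
mmu-miR-15b-5p: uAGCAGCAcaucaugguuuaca
mmu-miR-16-5p: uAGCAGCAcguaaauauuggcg
mmu-miR-17-5p: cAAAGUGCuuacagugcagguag
mmu-miR-20b-5p: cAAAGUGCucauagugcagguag
mmu-miR-26a-5p: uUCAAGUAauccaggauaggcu
mmu-miR-7a-1-3p: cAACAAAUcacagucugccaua
mmu-miR-15b-3p: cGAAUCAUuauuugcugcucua
mmu-miR-17-3p: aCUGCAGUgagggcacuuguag
mmu-miR-20b-3p: aCUGCAGUgugagcacuucuag

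A match of 7 bases to a 5p seed was present in the 3′ UTR of 3 of the 10 genes, and a match to a 3p seed in 3 of the 10. Among the longest annotated 3′ UTRs of 21830 genes, 39.2% held a 5p match and 32.8% a 3p match, so neither share stands out. None of the matches was followed by the A that makes an 8-base site. Spry2, raised in HM, held no match in its 856 bases of 3′ UTR, nor did Etv4 in 624 bases, Fgf15 in 1005 bases or Fgf8 in 192 bases. Fgf4 held 1 match for a 5p seed and 2 for 3p seeds, where 62.4% and 51.2% of 3′ UTRs of like length hold one. Dusp6 held 1 for a 3p seed (33.9% at its length) and 0 for 5p seeds. Spry4 held the most for 5p seeds among the raised genes, 3 in 3559 bases, a length at which 79.0% of 3′ UTRs hold one. The sites in Fgf4 and Dusp6 are shown as examples from genes raised in HM, in 30 bases of the transcript strand with the match in capitals.
Fgf4, miR-17-5p and miR-20b-5p, chr7:144862994-144863000: cctcaggaggaGCACTTTctctcgatggag
Fgf4, miR-7a-1-3p, chr7:144863676-144863682: gatagaggatgATTTGTTgggatataacaa
Fgf4, miR-17-3p and miR-20b-3p, chr7:144863819-144863825: tatgcaggcagACTGCAGgagtccgaattc
Dusp6, miR-7a-1-3p, chr10:99266847-99266853: gtttggcttgtATTTGTTttttatctttgg

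Promoters of 4 of the 10 genes (Fgf4, Dusp6, Spry2 and Etv5) could be matched in RefSeq, each 250 bases before and 50 after the start. The ETS motif CCGGAAGT was found on either strand in 0 of the 4, and 3.89% of 32851 promoters hold it. Its shorter core CCGGAA, which overlaps it, was found in Spry2 (14.9% of all promoters), and AGGAAG, a PEA3 motif added after the first search, in Dusp6 and Etv5 (35.4%). No motif searched was found in both Spry2 and Dusp6, and the part of any motif in their levels was not tested. The promoters of these genes, both higher in HM than in WT, are shown as examples. They run from 5′ to 3′ in the direction of the gene, with the match in capitals (in Dusp6 on the opposite strand).
Spry2, chr14:105896770-105897069, minus strand, GRCm38.p6: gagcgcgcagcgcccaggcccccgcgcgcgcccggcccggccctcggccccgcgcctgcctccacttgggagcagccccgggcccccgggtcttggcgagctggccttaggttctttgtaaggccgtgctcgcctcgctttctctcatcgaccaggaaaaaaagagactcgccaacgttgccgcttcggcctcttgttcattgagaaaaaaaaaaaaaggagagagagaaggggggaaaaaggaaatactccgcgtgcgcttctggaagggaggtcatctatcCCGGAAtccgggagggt
Dusp6, chr10:99262981-99263280, plus strand, GRCm38.p6: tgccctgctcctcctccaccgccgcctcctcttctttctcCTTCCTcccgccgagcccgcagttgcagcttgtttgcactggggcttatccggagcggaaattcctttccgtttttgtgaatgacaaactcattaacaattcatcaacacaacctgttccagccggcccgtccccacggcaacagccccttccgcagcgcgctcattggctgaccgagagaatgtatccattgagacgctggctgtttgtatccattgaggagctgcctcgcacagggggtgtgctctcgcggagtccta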

How the data were processed

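By the study's methods, the authors merged the read pairs of 18 poly(A) mRNA-seq libraries (6 WT, 6 HetKO and 6 HM) using BBMerge and estimated expression with RSEM, and they deposited the TPM of 55450 genes to 2 decimals. The submitters' processing notes instead list cutadapt, STAR and mm10, and which of these made the table is not given in the sources used here. TPM keeps no depth, so precision was taken from the spread between samples. Positions and 3′ UTRs came from GENCODE for GRCm38, in which all 55450 identifiers were found. Every column was used.

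Each comparison used its own 12 samples and the genes that averaged 1 TPM or more in them. Values were taken to log2(TPM + 1) and fitted with limma 3.58.1 (R 4.3.3), with a variance prior that follows expression and Benjamini-Hochberg adjustment over all genes tested (threshold 0.05). The procedure was also run on simulated data with independent samples. Those data lack the alike pairs, so that run does not give error rates for the real samples. The 10 genes, the lists and the markers were chosen with earlier results of these data known. From each list, up to 2 genes higher and 2 lower in HM with a mean of 5 TPM or more were named by size of change, and the 5 genes most like Fgf8 by Pearson's r. Alternatives were a pseudocount of 0.1, no filter, a minimum mean of 5 TPM, median centring, quantile normalization, an unequal-variance test per gene, a fit over all 3 lines, replicate numbers as a block, alike pairs as replicates, and leaving out HetKO replicates 2 and 5. Replicate numbers did not pair samples, since deviations of same-numbered samples had mean correlations of 0.003 to 0.062 in the 3 comparisons. Values were handled with Python 3.11.15 and pandas 2.3.3.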

Additional observations from a re-analysis of the deposited data

Results flagged for a closer look

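In each of 30 groups of 6 samples (10 genes in 3 lines), the sample at either end was examined by Dixon's ratio. This ratio divides the gap to the nearest sample by the range of all 6. With independent samples chance passes it in about 1 of 20 groups, or 1.5 of these 30. The alike pairs may not be independent, so that rate is only a guide. In 3 groups a sample stood apart. Etv4 was 66.7 TPM in WT replicate 4, against 44.0 to 50.9 TPM in the other WT samples. It was also high in HM replicate 4, at 117 TPM against 86.6 to 97.3 TPM. Etv5 was 119 TPM in WT replicate 1, against 134 to 138 TPM in the other WT samples.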

How the results depend on the processing

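Of the 38 pathway genes called between HM and WT, 19 were called with each alike pair as 1 replicate. The 7 called between HetKO and WT became 4 with a mean of at least 5 TPM, 3 by an unequal-variance test per gene, 4 without HetKO replicates 2 and 5, and 0 with pair means (6 at an unadjusted p under 0.05 in limma), and the 24 between HM and HetKO became 5 with pair means. With the replicate number as a block, 7 members and 35 pathway genes were called between HM and WT, 5 pathway genes in the HetKO and WT comparison and 24 in that of HM with HetKO, so the block moved no count by over 1.5 times. The log2 fold change of Fgfr1 between HM and WT turned to 0.02 under median centring. Between HetKO and WT, without HetKO replicates 2 and 5, Fgfr1 turned to -0.05, Spry2 to -0.68 and Spry4 to -0.46, and Spry2 was -0.01 with a pseudocount of 0.1. Of 20 other named genes, 13 were called in every alternative between HM and WT and 7 were not in at least 1. Over all genes, the 7220 calls between HM and WT became 3414 with pair means, the 1421 between HetKO and WT became 35, or 852 by the unequal-variance test, and the 4765 between HM and HetKO became 454. Members with a seed match fell to 0 on either arm with 8-base sites. Depth limits were unknown, since TPM keeps none.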
